A study of Mus musculus with 34 samples.

Results

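Hippocampal tissue of 13- to 14-month-old mice was compared between 4 control mice (Hdac1f/f, both copies of Hdac1 floxed and no Cre) and 5 Hdac1 cKO mice (Hdac1f/f, Nestin-Cre), which are 9 of the 34 samples of the study. Both groups carry the floxed alleles, and neither carries the 5XFAD transgenes. Hippocampal tissue of 13-month-old mice on the 5XFAD background, 6 Hdac1f/f, 5XFAD mice and 5 compound mice (Hdac1f/f, Nestin-Cre, 5XFAD), and GFAP+ nuclei of the cortex from 3 control and 4 cKO samples, served as separate sets. Nestin-Cre recombines floxed alleles in neural progenitors, so that neurons, astrocytes and other cells of the neural lineage lose the gene while microglia keep it. No group with Cre and intact Hdac1 was used here, so the presence of Cre and the loss of Hdac1 cannot be told apart. Every value is an FPKM (fragments mapped to a transcript, scaled by its length and by the size of the library) from libraries of the 3′ ends of transcripts. Of 23951 genes listed, 14265 reached 0.5 FPKM on average in the 9 mice and were tested. The mice share no label beyond group and number, and each library is 1 mouse.

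HDAC1 is a class I histone deacetylase that removes acetyl groups from histone tails and acts within the Sin3, NuRD and CoREST corepressor complexes, mostly beside its close relative HDAC2. The choroid plexus is a secretory epithelium in the brain ventricles that makes cerebrospinal fluid, and ependymal cells are the ciliated lining of the ventricle walls. Both lie next to the hippocampus and can be carried along when it is dissected. The comparison therefore asks which genes differed after Hdac1 loss, and how many of those differences belonged to genes that track choroid plexus or ependyma.

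Marker genes placed the libraries unevenly. A marker score was taken as the mean log2(FPKM + 1) over every gene of a cell type's list that had an FPKM, tested or not. The choroid plexus score was 1.62, 4.14, 4.41 and 3.83 in control mice 1 to 4, and 1.02, 1.04, 1.00, 0.91 and 1.95 in Hdac1 cKO mice 1 to 5. The ependymal score was 1.85, 2.54, 2.61 and 2.64 in the control mice and 1.62, 1.71, 1.65, 1.73 and 1.63 in the cKO mice. Control mouse 1 therefore stood apart from the other controls, with a choroid plexus score below that of cKO mouse 5, while its ependymal score was above those of all 5 cKO mice. Neuron scores lay between 6.91 and 7.01 in the controls and between 6.997 and 7.12 in the cKO mice, astrocyte scores between 5.44 and 5.46 and between 5.43 and 5.48, so the defining markers of hippocampal tissue were present in every library. Relative depth, read from the smallest steps between FPKM values, ran from 1 to 2.19 in the controls and from 1.51 to 2.35 in the cKO mice, and between 7429 and 8290 genes were listed at 0 per library. In bulk tissue, fewer cells of a type and less RNA per cell cannot be told apart.

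**Figure D1:**
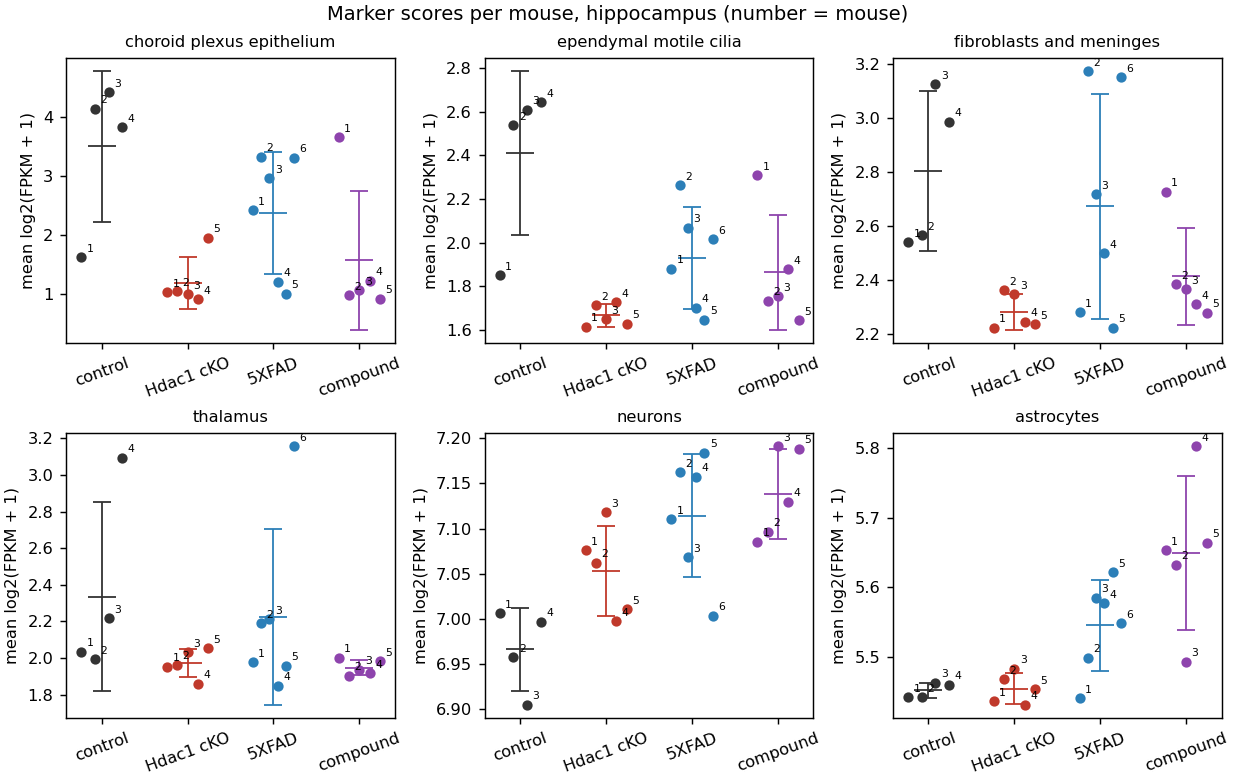
Marker scores (mean log2(FPKM + 1) over each list) of each hippocampal mouse for 6 cell sources, for the 2 groups compared and for 5XFAD mice with floxed Hdac1 alone or with Nestin-Cre (compound), with bars for the mean and SD. The cKO mice sit between 0.91 and 1.95 for choroid plexus, where 3 of the 4 controls sit between 3.83 and 4.41 and control mouse 1 at 1.62.

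The targeted gene was lower in every cKO mouse. Hdac1 (chr4:129193348-129219957, minus strand, mm9) was measured at 6.42, 8.71, 10.7 and 5.91 FPKM in control mice 1 to 4 and at 3.0, 3.03, 2.62, 2.7 and 2.36 FPKM in cKO mice 1 to 5. The groups did not overlap, and Hdac1 fell by 1.23 ± 0.16 on the log2 scale (SE, 4 against 5 mice, limma adjusted p = 0.0236). The sources do not state which exons are floxed, so the 3′ reads give the level of the transcript rather than the state of the locus. Its paralog Hdac2 was at 23.7, 14.6, 17.4 and 18 FPKM in the controls and 14.5, 17.1, 12.6, 19 and 16.8 FPKM in the cKO mice, and these ranges overlapped (log2 fold change -0.19 ± 0.15, adjusted p = 0.678). The Hdac2 value was -0.07 ± 0.14 without control mouse 1, and -0.58 ± 0.27 with the choroid plexus and ependymal scores as covariates. Among 40 tested genes for class I HDACs and subunits of their corepressor complexes, Hdac1 was the single DEG, and the median log2 fold change of the list was 0.01.

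Genes were counted as differentially expressed (DEGs) when they differed by 1.5-fold or more and the limma p before adjustment was under 0.05. By this rule 409 genes were lower in the cKO mice, or 2.87% of those tested, and 71 were higher, or 0.498%. After Benjamini-Hochberg adjustment over all 14265 genes, 22 genes (0.154%) had p under 0.05, of which 21 were lower and 1 was higher. This count depended on single mice, being 290 without control mouse 1 and between 2 and 9 without any other mouse. All 22 separated the groups without overlap, in a comparison where every cKO mouse lay below every control for 307 genes (2.15%) and above every control for 297 (2.08%). The DEG rule therefore called many more falls than rises, whereas the 2 directions were close to balanced when only the order of the mice was read, and with the choroid plexus and ependymal scores as covariates, described further on, 491 genes (3.44%) were lower and 565 (3.96%) higher DEGs.

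To separate the choroid plexus and ependymal part, genes were divided into 5 classes with mice that do not enter the comparison. The correlation of each gene with the choroid plexus score and with the ependymal score was taken over the 6 5XFAD and 5 compound mice, each group centred, and a gene with r of at least 0.8 was called linked to the list it tracked more closely. The 2 scores themselves had r = 0.955 over these 11 mice, so the 2 sources were seldom separable in them. Of 25 choroid plexus list genes 21 were tested, since Abca4, Mfrp, Slco1a5 and Lmx1a lay below the filter, and 20 were lower DEGs (median log2 fold change -2.58), all but Wfikkn2. The filter is on the mean over all 9 mice, so a gene could pass it through the controls alone, and these counts describe the division rather than support it. Of 94 further choroid-linked genes, 49 were lower DEGs (median -0.77). Of 52 ependymal list genes, 50 were in the files, 45 of them above the filter, and these had 26 lower DEGs (median -0.73), and 45 ependyma-linked genes had 25 (median -0.89). No gene of these 4 classes was a higher DEG. They held 120 of the 409 lower DEGs, or 29.3%, and 8 of the 22 genes with an adjusted p under 0.05.

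Outside the 4 classes, 289 of 14060 genes (2.06%) were lower DEGs and all 71 higher DEGs were found, with a median log2 fold change of 0.0022 over the 14060. The division by r of at least 0.8 is not a clean line. Of these 289 genes, 104 (36.0%) still had r of at least 0.5 with the choroid plexus score in the 5XFAD and compound mice, compared with 1144 (8.14%) of all genes outside the classes. Of the 71 higher DEGs, 2 had such an r. How much of the 289 reflects tissue carried along at dissection was not tested.

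**Figure D2:**
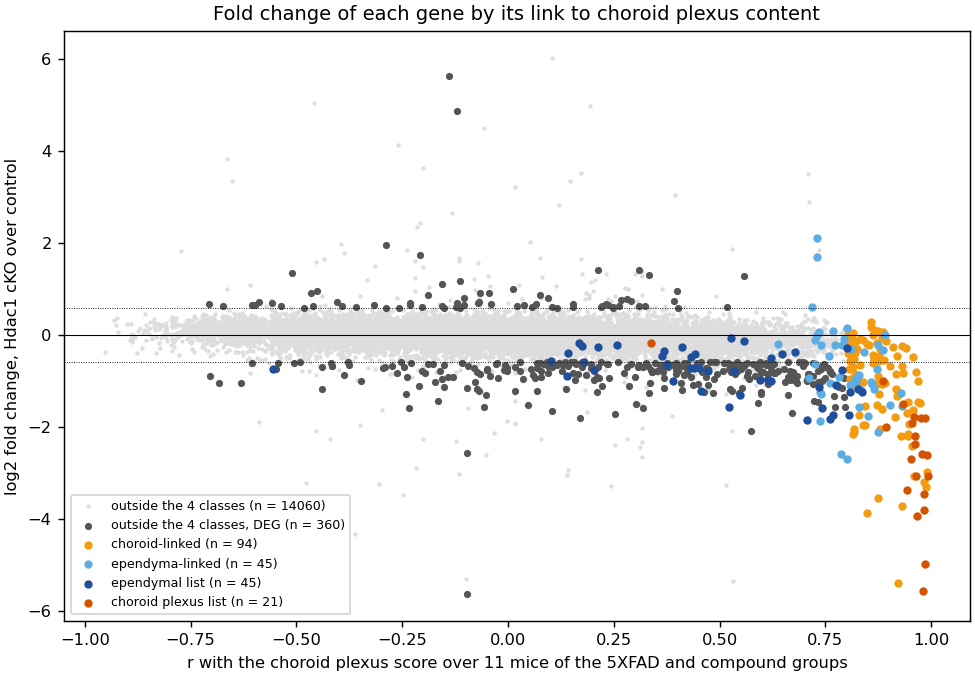
Log2 fold change of each tested gene (Hdac1 cKO over control, vertical axis) against its correlation with the choroid plexus score over the 11 5XFAD and compound mice (horizontal axis), coloured by class, with dotted lines at a fold change of 1.5. All 21 choroid plexus list genes and 87 of the 94 choroid-linked genes lie below 0, and r is at least 0.5 for 104 of the 289 lower and 2 of the 71 higher DEGs outside the 4 classes.

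Among choroid plexus genes, Ttr, which encodes the thyroxine carrier secreted by this epithelium, was at 576, 17485, 20146 and 12903 FPKM in the controls and 106, 72.4, 105, 56.5 and 1608 FPKM in the cKO mice, so that cKO mouse 5 exceeded control mouse 1. The potassium channel gene Kcnj13 was at 5.35, 96.6, 146 and 87.8 FPKM in the controls and 0, 0, 0.299, 0.143 and 8.08 FPKM in the cKO mice and fell by 4.99 ± 1.13 (adjusted p = 0.184). Folr1, the folate receptor of the epithelium, followed the same order, at 5.0, 87.7, 114 and 59.7 FPKM against 0.923, 1.9, 1.24, 1.19 and 9.92 FPKM, with control mouse 1 again under cKO mouse 5. In these 3 genes, 3 controls were high and control mouse 1 was low.

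For 4 of the 21 genes, control mouse 1 was still above all 5 cKO mice. These included Kcne2, an accessory subunit of potassium channels, at 1.23, 27, 29 and 14.3 FPKM in the controls and 0.137, 0.128, 0, 0 and 0.787 FPKM in the cKO mice (log2 fold change -3.46 ± 0.75, adjusted p = 0.155). Cldn2, a tight junction claudin, was at 1.29, 11.8, 7.5 and 8.62 FPKM and 0.214, 0.601, 0.179, 0.172 and 0.638 FPKM, and fell by 2.38 ± 0.43 (adjusted p = 0.078). Slc13a4, a sulfate transporter, was at 1.81, 10.7, 14.6 and 7.59 FPKM in the controls and 1.46, 0.83, 1.01, 0.408 and 1.7 FPKM in the cKO mice, so that the lowest control was just above the highest cKO mouse. Control mouse 1 lay within or under the cKO range for Clic6, at 0.347, 18.2, 19.5 and 13.5 FPKM against 0.403, 0, 0.387, 0.371 and 2.28 FPKM, and for the water channel gene Aqp1, at 0.24, 3.01, 4.99 and 2.04 FPKM against 0, 0.224, 0, 0 and 0.255 FPKM. The bicarbonate transporter gene Slc4a5 and the klotho gene Kl had log2 fold changes of -1.81 ± 0.42 and -1.81 ± 0.44 (adjusted p = 0.139 and 0.169). None of the 21 genes passed the adjusted threshold in all 9 mice, and 20 passed it when control mouse 1 was left out.

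Among the 94 choroid-linked genes, the 6 with the smallest p included LOC100503676, at 1.9, 8.22, 5.38 and 6.24 FPKM in the controls and 0, 0.197, 1.06, 0 and 0.671 FPKM in the cKO mice (adjusted p = 0.0315), the only member of the class past the adjusted threshold. Elovl7, a fatty acid elongase, was at 4.75, 9.82, 12.5 and 8.47 FPKM against 2.84, 3.43, 2.85, 3.27 and 3.59 FPKM and fell by 1.17 ± 0.21 (adjusted p = 0.0543) without overlap. Ctnnal1, an alpha-catenin relative, fell by 1.06 ± 0.21 and Pcp4l1 by 0.80 ± 0.16 (adjusted p = 0.078 for each). The kinase gene Stk39, which acts on cation-chloride cotransporters, was at 25.8, 36.4, 38 and 32.6 FPKM in the controls and 22.4, 20.5, 21, 21.2 and 23.8 FPKM in the cKO mice, below every control but short of a 1.5-fold change. Cd209f, a lectin of macrophages, was at 3.05, 1.85, 1.92 and 2.31 FPKM against 0.45, 0.843, 0.945, 0.725 and 1.15 FPKM, and control mouse 1 had the highest value of all 9 mice.

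The ependymal list was lower as a whole in the cKO mice: all 45 tested genes had a negative log2 fold change, from -1.85 to -0.07, where 7157 of the 14265 genes tested did. Tekt1 (chr11:72158224-72175944, minus strand, mm9), a tektin of the microtubule doublets of motile cilia, was at 7.36, 9.41, 10.1 and 6.4 FPKM in the controls and 2.03, 1.27, 2.69, 1.77 and 1.19 FPKM in the cKO mice, with control mouse 1 in the middle of its group. It had the smallest p of the comparison (log2 fold change -1.75 ± 0.19, adjusted p = 0.00602). Mlf1 was at 4.7, 7.51, 13.3 and 8.47 FPKM against 2.98, 1.67, 1.5, 1.26 and 0.714 FPKM and fell by 1.83 ± 0.28 (adjusted p = 0.0315). Lrriq1, at 8.0, 13.6, 12.1 and 14.2 FPKM against 4.88, 3.78, 4.03, 4.57 and 6.24 FPKM, and Ccdc153, at 10.8, 15.5, 18.1 and 18.9 FPKM against 7.39, 7.79, 6.01, 9.12 and 6.94 FPKM, fell by 1.18 ± 0.17 and 0.98 ± 0.16 (adjusted p = 0.0308 and 0.046). For these 4 genes no cKO mouse reached any control.

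Not every cilium gene had that order. Foxj1, the transcription factor that drives the motile cilium programme, was at 0.387, 1.06, 2.32 and 2.2 FPKM in the controls and 0.258, 0.402, 0.433, 0.415 and 1.1 FPKM in the cKO mice, with overlap (log2 fold change -0.65 ± 0.27, adjusted p = 0.359). The radial spoke gene Rsph1 was at 4.15, 24.4, 27.8 and 24.2 FPKM in the controls and 9.13, 5.97, 5.53, 7.02 and 5.3 FPKM in the cKO mice, so control mouse 1 was below every cKO mouse. Tmem212, an ependymal marker, did have that order, at 24.5, 32.1, 32.7 and 75.6 FPKM against 11.9, 19.7, 10.3, 17.9 and 14.7 FPKM, with its highest value in control mouse 4. The place of control mouse 1 thus differed between members of the list, and 19 of the 45 tested genes were not DEGs. Among 34 genes of intraflagellar transport and the BBSome, which primary cilia of neurons and astrocytes also use, none was a DEG and the median was -0.07. Every cKO mouse lay below every control for 3 of the 34, beside 2.15% of all genes tested.

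Motile cilium genes share a promoter element, the X-box bound by RFX transcription factors, and its core was looked for as the letters GTTGCC on either strand in RefSeq promoters (GRCm38.p6, windows of 300 bases around the start site). It was found in 20 of the 37 promoters that matched the 45 tested ependymal genes (54.1%), in 13 of 30 for the primary cilium list (43.3%), in 5 of 17 for the choroid plexus list (29.4%), in 8 of 37 for the ependyma-linked genes (21.6%) and in 3821 of all 27025 promoters (14.1%). A match is a run of letters and not a bound site. Stretches of the promoters of the 4 ependymal list genes with an adjusted p under 0.05 are printed because these genes carry the ependymal result, 5′ to 3′ on the gene's strand, with the copy of GTTGCC nearest the start site in capitals.
Tekt1 (chr11:72361883-72361957, minus strand): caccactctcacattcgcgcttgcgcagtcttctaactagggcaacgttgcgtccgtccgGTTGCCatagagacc
Mlf1 (chr3:67373932-67374057, plus strand): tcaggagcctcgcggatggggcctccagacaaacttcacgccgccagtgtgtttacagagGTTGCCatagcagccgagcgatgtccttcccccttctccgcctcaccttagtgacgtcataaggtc
Lrriq1 (chr10:103236323-103236401, minus strand): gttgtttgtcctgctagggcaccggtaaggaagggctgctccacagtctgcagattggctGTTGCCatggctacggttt
Ccdc153 (chr9:44240465-44240590, plus strand): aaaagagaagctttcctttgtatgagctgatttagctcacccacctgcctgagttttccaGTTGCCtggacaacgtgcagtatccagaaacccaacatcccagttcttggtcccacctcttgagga
The capitals lie 15, 105, 19 and 152 bases before the start site in these 4 genes, and the printed stretch reaches the start site in Tekt1 and Lrriq1 and ends before it in Mlf1 and Ccdc153.

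Of the 45 ependyma-linked genes outside the list, 3 had an adjusted p under 0.05. Smim5, which encodes a small membrane protein, was at 2.91, 6.65, 11.4 and 12.2 FPKM in the controls and 0.83, 0.259, 0, 0.669 and 0.354 FPKM in the cKO mice, and 1700026L06Rik was at 9.83, 15.5, 7.44 and 13.8 FPKM against 0, 1.63, 1.46, 0.702 and 1.11 FPKM. They fell by 2.59 ± 0.33 and 2.70 ± 0.29 (adjusted p = 0.0236 and 0.00602), and 4932438H23Rik by 1.28 ± 0.22 (adjusted p = 0.0472). Igfbp2, a binding protein of insulin-like growth factors made by choroid plexus and meninges, was at 8.73, 28.5, 38.7 and 28.3 FPKM against 5.26, 5.78, 6.55, 5.26 and 8.12 FPKM. Sulf1, an extracellular sulfatase of heparan sulfate, was at 0.993, 7.98, 12 and 7.68 FPKM against 0.613, 0.694, 0.317, 0.418 and 0.814 FPKM. In both, control mouse 1 lay just above the cKO mice, and neither passed the threshold after limma's test and adjustment (adjusted p = 0.133 and 0.134).

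Lists for other tissue next to the hippocampus also held lower DEGs. Of 17 genes of fibroblasts and meninges, 6 were lower DEGs (Ptgds, Igfbp2, Fmod, Islr, Slc6a13 and Igf2; 35.3%, beside 2.87% of all genes tested) and none was higher, with a median of -0.55. There were 2 lower DEGs with the choroid plexus score as covariate, and 1 lower and 1 higher with the ependymal score as well (median -0.16), and 9 of the 17 genes had r of at least 0.5 with the choroid plexus score. The meningeal score was 2.54, 2.56, 3.12 and 2.99 in the controls and between 2.22 and 2.36 in the cKO mice, without overlap. Ptgds, the prostaglandin D synthase of meninges and oligodendrocytes, was at 1637, 1757, 2901 and 2153 FPKM in the controls and 1197, 1175, 1136, 764 and 935 FPKM in the cKO mice and fell by 1.00 ± 0.19 (adjusted p = 0.078). Control mouse 1 was above the cKO mice for Ptgds. In the 5XFAD and compound mice Ptgds had r = 0.71 with the choroid plexus and 0.77 with the ependymal score. Its log2 fold change was -0.59 with both scores as covariates, and the part of those tissues in its fall was not tested. Of 17 thalamus genes 4 were lower DEGs (23.5%, median -0.35). Without control mouse 4 there were 2, with a median of -0.02, and none was left with either set of covariates, where the median was -0.13 with the choroid plexus score and 0.07 with both scores. The transcription factor genes Zic1, at 1.85, 2.98, 9.96 and 15.7 FPKM against 1.36, 0.546, 1.2, 0.992 and 1.45 FPKM, and Zic4, at 0.474, 0.901, 2.54 and 4.52 FPKM against 0.105, 0.393, 0.485, 0.169 and 0.134 FPKM, were highest in control mouse 4, whose thalamus score of 3.09 stood above the other controls (1.99 to 2.22) and the cKO mice (1.86 to 2.05). Tnnt1, a troponin of the thalamus list, had the same high mouse, at 3.1, 4.42, 4.04 and 10.04 FPKM against 1.55, 4.35, 1.52, 1.25 and 3.13 FPKM.

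Lists for the cells of the hippocampus itself held few or no DEGs. None of 20 neuron, 22 astrocyte, 20 microglia, 20 mature oligodendrocyte, 14 oligodendrocyte precursor, 9 mural cell, 14 dentate granule cell, 12 CA1 pyramidal cell or 16 neural progenitor and newborn neuron genes was a DEG. Their medians were 0.06, 0.04, 0.13, -0.15, -0.01, 0.03, -0.01, 0.14 and -0.06 in that order. The microglia score nevertheless separated the groups by a small step, at 4.03, 4.04, 4.06 and 3.99 in the controls and between 4.10 and 4.16 in the cKO mice, with 15 of the 20 genes positive. Each of the CA3 and CA2, interneuron and perivascular macrophage lists had 1 lower DEG (Coch of 17, Calb2 of 23 and Ms4a7 of 5; 5.88%, 4.35% and 20%, beside 2.87% of all genes tested), and no gene of the 5 erythrocyte genes was a DEG. Of 19 endothelial genes the single DEG was Slco1c1, a thyroid hormone transporter of brain endothelium that the choroid plexus also expresses, at 8.46, 17, 18.1 and 14.6 FPKM in the controls and 5.21, 7.58, 7.25, 6.68 and 9.42 FPKM in the cKO mice (log2 fold change -0.89 ± 0.21, adjusted p = 0.133).

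Outside the choroid plexus and ependymal classes, 14 genes had an adjusted p under 0.05, and for all 14 the groups were apart. In the 5XFAD and compound mice, 7 of them (Prps2, Hspa5, Cmtm8, Aga, Cd63, Ggh and Ezr) had r between 0.51 and 0.67 with the choroid plexus score, and the part of that tissue in their falls was not tested. Prps2 (chrX:163784254-163820681, minus strand, mm9), a synthetase of the nucleotide precursor phosphoribosyl pyrophosphate, was at 12.8, 12.8, 13.7 and 13.2 FPKM in the controls and 8.43, 6.95, 5.98, 6.89 and 7.86 FPKM in the cKO mice. Ggh, the lysosomal hydrolase that shortens folate polyglutamates, was at 20.2, 24.7, 23.3 and 20.5 FPKM against 11.8, 13.3, 14, 10.4 and 13.1 FPKM. These fell by 0.79 ± 0.11 and 0.78 ± 0.11 (adjusted p = 0.0262 for each), with a narrow spread in both groups and no deviation of control mouse 1. Aga, a lysosomal enzyme that degrades glycoproteins, was at 14.8, 10.4, 14.3 and 15.6 FPKM against 5.98, 7.73, 7.62, 7.93 and 6.91 FPKM (adjusted p = 0.0365). Cd63 (chr10:128345975-128349872, plus strand, mm9), a tetraspanin of late endosomes and secreted vesicles, was at 305, 432, 454 and 357 FPKM against 221, 262, 202, 201 and 192 FPKM and fell by 0.83 ± 0.13 (adjusted p = 0.0315). Ggh, Aga and Cd63 were placed side by side after their values were seen, and this grouping rests on no list or test.

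A list of 34 lysosomal proteins, which did not include Ggh, Aga or Cd63, held a single DEG (2.94%, beside 2.87% of all genes tested). This was Lamp2, a membrane protein of lysosomes, at 22.9, 37.1, 33.8 and 34 FPKM in the controls and 20.1, 17, 18.2, 21.8 and 17.5 FPKM in the cKO mice (log2 fold change -0.71 ± 0.14, adjusted p = 0.078), and the median of the list was -0.10 with 24 negative and 10 positive values. The median changed sign with the choroid plexus score (0.06) and with both scores (0.15) as covariates, and it was 0.11 on the 5XFAD background, where 8 of 34 genes were negative.

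Of the remaining falls, Ezr encodes ezrin, which ties the plasma membrane to actin. It was at 25.3, 27.6, 33.4 and 20.9 FPKM in the controls and 12.2, 12.7, 11.4, 11.2 and 18.6 FPKM in the cKO mice (log2 fold change -0.97 ± 0.16, adjusted p = 0.046), with cKO mouse 5 highest of its group as for the choroid plexus genes. Sncg (chr14:35183460-35187975, minus strand, mm9), the gene of gamma-synuclein, was at 28.4, 20.6, 48.3 and 37.5 FPKM against 13.9, 10.8, 10.4, 14.9 and 14.3 FPKM and fell by 1.27 ± 0.21 (adjusted p = 0.0472). Cmtm8, at 6.77, 5.36, 7.42 and 11.4 FPKM against 3.32, 3.33, 3.18, 2.1 and 2.42 FPKM, fell by 1.14 ± 0.19 (adjusted p = 0.046). Cxcl13, a chemokine that attracts B cells, was at 2.24, 1.02, 4.24 and 1.74 FPKM in the controls and was listed at 0 in 4 of the 5 cKO mice and at 0.213 FPKM in cKO mouse 1. Values this low are shrunk by the pseudocount of 1 added before the logarithm, as are those of 4833427G06Rik, at 2.14, 1.96, 3.55 and 1.83 FPKM against 0, 0, 0, 0.287 and 0.684 FPKM, and of 1700040L02Rik, at 2.37, 5.0, 4.49 and 4.04 FPKM against 1.18, 1.29, 1.65, 0.952 and 0.882 FPKM.

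**Figure D3:**
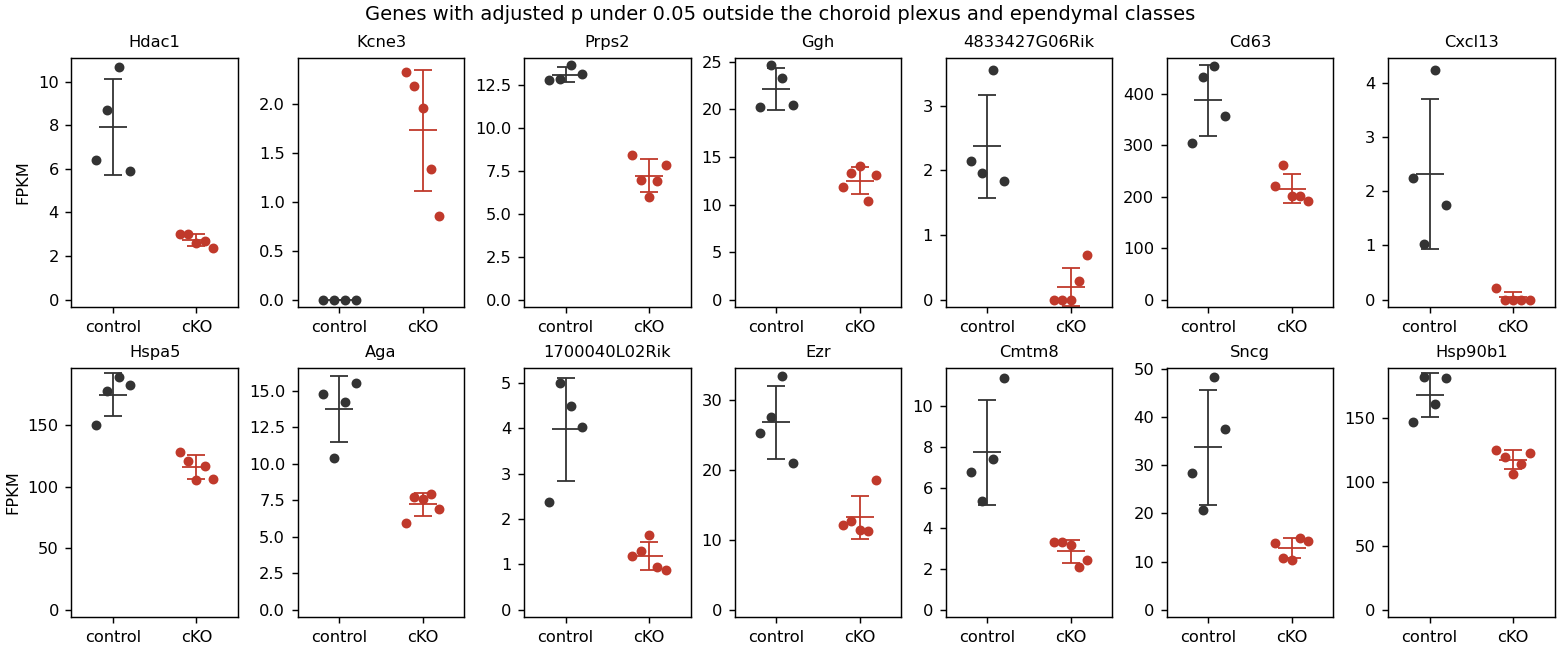
FPKM of the 9 mice, in the 4 controls and the 5 Hdac1 cKO mice, for the 14 genes with an adjusted p under 0.05 outside the choroid plexus and ependymal classes, with bars for the mean and SD. The groups do not overlap in any panel, and Kcne3, listed at 0 in all 4 controls, is the single gene that is higher in the cKO mice.

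Of the 14 genes, Hspa5 and Hsp90b1 encode chaperones of the endoplasmic reticulum (ER). Chaperones of the ER fold newly made secretory and membrane proteins, and their genes are switched on by the unfolded protein response. Hspa5 (chr2:34627490-34632051, plus strand, mm9), which encodes the chaperone BiP, was at 149.8, 177, 189 and 182 FPKM in the controls and 128, 121, 106, 117 and 106 FPKM in the cKO mice (log2 fold change -0.59 ± 0.09, adjusted p = 0.0315). Hsp90b1, the HSP90 of the ER, was at 147, 182, 161 and 181 FPKM against 125, 119, 106, 114 and 123 FPKM, a log2 fold change of -0.51 ± 0.09 that passed adjustment in limma (adjusted p = 0.0472) but not the 1.5-fold rule. The disulfide isomerase gene Pdia4 was at 9.7, 9.71, 8.28 and 10.6 FPKM against 5.46, 6.63, 5.86, 6.42 and 5.1 FPKM and fell by 0.62 ± 0.12 (adjusted p = 0.078). In these 3 genes control mouse 1 lay above all cKO mice. It was among the other controls for Pdia4 and under them for Hspa5 and Hsp90b1, and for Hspa5 it was nearer the highest cKO mouse than the next control. The number of lower DEGs on the ER list was 0 without cKO mouse 5 and 3 without control mouse 1.

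The rest of the list was spread. Of 29 tested genes, 19 had a negative and 10 a positive log2 fold change. Every cKO mouse lay below every control for 6 and above every control for 1, beside 2.15% and 2.08% of all genes tested. There were 2 lower DEGs, or 6.90% of the list, beside 2.87% of all genes tested, and none was a higher DEG. The median was -0.11, and it changed sign to 0.06 with the choroid plexus score and 0.09 with both scores as covariates, where 13 of the 29 were negative. None of 35 genes for ER translocation and vesicle coats and none of 26 for N-glycosylation was a DEG (medians -0.01 and -0.05). Among 20 cytosolic heat shock genes, Hspb1, a small heat shock protein, was the single DEG, at 19.3, 45, 31.1 and 31.1 FPKM in the controls and 12.8, 13.1, 15.2, 13.1 and 17.1 FPKM in the cKO mice (log2 fold change -1.04 ± 0.19, adjusted p = 0.0748).

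The ER stress response element, the letters CCAAT, 9 further bases and CCACG on either strand, was found in 10 of the 25 promoters that matched the 29 ER genes (40.0%), in none of the 37 ependymal promoters and in 37 of all 27025 promoters (0.137%). Stretches of the promoters of the 2 ER genes with an adjusted p under 0.05 are printed, with both ends of the element nearest the start site in capitals. In Hsp90b1 the element is read on the other strand.
Hspa5 (chr2:34771965-34772089, plus strand): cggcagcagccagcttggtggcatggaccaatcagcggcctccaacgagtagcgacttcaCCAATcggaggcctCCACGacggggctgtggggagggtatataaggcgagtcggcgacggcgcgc
Hsp90b1 (chr10:86705473-86705611, minus strand): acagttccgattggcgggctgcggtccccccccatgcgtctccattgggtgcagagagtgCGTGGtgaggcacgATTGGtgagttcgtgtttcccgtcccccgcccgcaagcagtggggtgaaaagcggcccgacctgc
The capitals begin 65 bases before the start site in Hspa5, where the printed stretch reaches that site, and 107 bases before it in Hsp90b1, where the stretch ends short of it. Pdia4 was not among the 10 genes with the element.

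The rises were fewer than the falls in the fit without covariates. Kcne3 (chr7:107327207-107333374, plus strand, mm9), an accessory subunit of potassium channels, was listed at 0 in all 4 controls and at 2.33, 2.18, 1.96, 1.34 and 0.851 FPKM in the cKO mice, a difference of 1.42 ± 0.20 on the log2(FPKM + 1) scale (adjusted p = 0.0262). It was the single rise past the adjusted threshold. The filter is on the mean over both groups, and Kcne3 passed it through the cKO mice alone. Its place among the genes tested, and so its adjusted p, therefore depended on the group in which it was high. Among 65 genes of potassium channels and their subunits Kcne3 was the single higher DEG. Kcne2 and Kcnj13 of the choroid plexus were the 2 lower DEGs. These calls stand beside 0.498% higher and 2.87% lower DEGs among all genes tested. A positive log2 fold change was found for 47 (median 0.12, beside -0.00068 over all genes tested), whereas on the 5XFAD background 43 of 64 were negative (median -0.05).

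Among genes of neuronal activity and of synapses, 4 higher DEGs were found. Nr4a1 (chr15:101097277-101105223, plus strand, mm9), an immediate early gene of the nuclear receptor family, was at 4.05, 2.09, 2.04 and 2.76 FPKM in the controls and 4.4, 6.98, 8.36, 7.37 and 5.34 FPKM in the cKO mice and rose by 1.01 ± 0.20 (adjusted p = 0.078). Junb, a subunit of the transcription factor AP-1, was at 5.43, 7.95, 6.56 and 7.15 FPKM against 8.1, 12.8, 14.2, 11.1 and 9.8 FPKM and rose by 0.64 ± 0.16 (adjusted p = 0.155). These were the 2 DEGs of 18 immediate early genes, beside 0.498% higher DEGs among all genes tested. Of the 18, 16 had a positive log2 fold change (median 0.28), as 7108 of the 14265 genes did. Every cKO mouse lay above every control for 5 of them, beside 2.08% of all genes tested. On the 5XFAD background, compared further on, the list had 0 DEGs by limma, 10 of 18 negative values and a median of -0.03. Such genes respond within minutes to handling and to the time of dissection, and no measure of either was used here.

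Of 20 genes for presynaptic vesicle release none was a DEG and 16 were positive (median 0.15). Of the 20, 4 were higher in every cKO mouse than in every control, beside 2.08% of all genes tested. On the 5XFAD background 14 of the 20 were negative. Gabrd (chr4:154759089-154772221, minus strand, mm9), the delta subunit of extrasynaptic GABA-A receptors, was at 8.05, 10.1, 8.49 and 9.98 FPKM in the controls and 13, 13.9, 16.6, 16.9 and 11.6 FPKM in the cKO mice and rose by 0.59 ± 0.13 (adjusted p = 0.113), the single DEG of 20 GABA genes. Grin2c, an NMDA receptor subunit, was at 0.588, 2.51, 2.47 and 2.45 FPKM against 3.61, 3.18, 4.16, 3.08 and 3.42 FPKM (adjusted p = 0.288), the single DEG of 32 glutamate receptor and postsynaptic genes, of which 18 were positive and 14 negative (21 negative on the 5XFAD background). Its fold change owed much to control mouse 1 and was 0.36 on the log2 scale without it. Of 19 neuropeptide genes 11 were negative, and Cartpt, the single DEG, was lower, at 21.5, 13.6, 16 and 17.2 FPKM against 9.34, 9.05, 12.2, 5.45 and 11.1 FPKM (log2 fold change -0.82 ± 0.20, adjusted p = 0.143). These single calls stand beside 0.498% higher and 2.87% lower DEGs among all genes tested.

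Of the other leading rises, Fam212a was at 6.43, 7.83, 8.12 and 5.6 FPKM in the controls and 9.74, 14, 12.2, 10.9 and 10.3 FPKM in the cKO mice. Mcat, a mitochondrial enzyme of fatty acid synthesis, was at 5.26, 6.79, 8.24 and 5.07 FPKM against 8.93, 11.1, 13.4, 9.63 and 11.2 FPKM, and Mvd, of the cholesterol pathway, at 5.71, 5.3, 4.84 and 5.64 FPKM against 9.42, 9.69, 10.6, 7.91 and 6.03 FPKM. Mvd was the single DEG of 30 genes for cholesterol and fatty acid synthesis, whose median was -0.08, beside 0.498% higher DEGs among all genes tested. Ackr3, a scavenging receptor of the chemokine CXCL12, rose by 0.64 ± 0.15, Amn, a partner of the endocytic receptor cubilin, by 0.91 ± 0.21, and the uncharacterised genes Gm16861, 6430706D22Rik and 1110054M08Rik by 1.10 ± 0.20, 0.95 ± 0.21 and 0.70 ± 0.16. Their limma adjusted p values lay between 0.0624 and 0.155.

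Some genes of 3 immune lists were lower DEGs. Of 13 complement genes 5 were lower DEGs (38.5%, beside 2.87% of all genes tested, median -0.50). For 4 of the 13 every cKO mouse lay below every control, beside 2.15% of all genes tested. No complement gene was a DEG with the choroid plexus score or with both scores as covariates (medians -0.06 and -0.14). Cd59a, which blocks the membrane attack complex, was at 8.94, 25.6, 34.6 and 21.8 FPKM in the controls and 8.58, 6.81, 7.32, 4.9 and 6.33 FPKM in the cKO mice. C4b, a component of the classical pathway, was at 2.36, 2.7, 4.64 and 3.02 FPKM against 1.26, 1.4, 2.34, 1.9 and 1.86 FPKM, and Serping1, an inhibitor of the first steps of that pathway, fell by 0.64 ± 0.18 (adjusted p = 0.195). The lower DEGs thus held both inhibitors of the cascade and components of it, C4b and C3. Control mouse 1 was far below the other controls for Cd59a, in the order of the choroid plexus genes, and not for C4b or Serping1.

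Of 23 interferon response genes 4 were lower DEGs (Bst2, Ifih1, Rtp4 and Ifi27, 17.4%, beside 2.87% of all genes tested, median -0.29). With both scores as covariates 2 were lower and 1 a higher DEG, beside 3.44% lower and 3.96% higher among all genes tested. Bst2 (chr8:74058163-74061336, minus strand, mm9), the antiviral membrane protein tetherin, was at 5.99, 7.95, 15.5 and 13.4 FPKM in the controls and 0.724, 3.39, 3.35, 4.38 and 3.71 FPKM in the cKO mice (log2 fold change -1.52 ± 0.36, adjusted p = 0.155). Ifih1, a cytosolic sensor of double-stranded RNA, was at 1.5, 1.33, 2.02 and 1.25 FPKM against 1.22, 0.37, 0.596, 0.191 and 0.934 FPKM. Of 13 genes of MHC antigen presentation 3 were lower DEGs (H2-Eb1, H2-Aa and Psmb9, 23.1%, beside 2.87% of all genes tested, median -0.32). With both scores as covariates 1 was a lower and 1 a higher DEG. H2-Eb1, an MHC class II chain of antigen-presenting cells, was at 3.14, 1.62, 12.1 and 3.42 FPKM against 1.25, 1.43, 1.52, 1.01 and 0.623 FPKM, with control mouse 3 highest, which also had the highest meningeal score. No gene of the microglia list was a DEG beside these falls. Meninges, choroid plexus and vessels hold macrophages and antigen-presenting cells as well, and their part in these falls was not tested.

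Of 20 reactive astrocyte genes tested, 4 were lower DEGs (20%, beside 2.87% of all genes tested) and none was higher, with 14 negative and 6 positive values (median -0.21), and with both scores as covariates 1 was a lower and 1 a higher DEG. The 4 genes were Hspb1, the complement genes C4b and Serping1 already given, and Cp, the ferroxidase ceruloplasmin, at 4.13, 3.68, 5.11 and 4.08 FPKM in the controls and 2.23, 3.24, 2.31, 1.64 and 3.12 FPKM in the cKO mice (adjusted p = 0.199). In antioxidant defence, 5 of 28 genes were lower DEGs, namely Gpx3, Nqo1, Gstm2, Gpx8 and Sod3 (17.9%, median -0.10). With the choroid plexus score, and with both scores, as covariates 0 of the 28 were lower DEGs and 1 was a higher DEG, and 7 of them had r of at least 0.5 with the choroid plexus score in the 5XFAD and compound mice. Gpx3, a secreted glutathione peroxidase, was at 4.9, 7.24, 6.41 and 9.23 FPKM against 4.5, 3.49, 4.3, 3.0 and 2.28 FPKM, and Nqo1, a quinone reductase, was ependyma-linked and was at 2.73, 4.25, 5.59 and 3.56 FPKM against 1.36, 0.85, 2.79, 1.22 and 2.03 FPKM. The rest of that list, 23 genes, held no DEG.

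Further lists were counted in the same way, beside 2.87% lower and 0.498% higher DEGs among all genes tested. Collagens had 3 lower DEGs of 16 (median -0.17), and 0 with either set of covariates. Retinoid transport and signalling had 3 of 19, insulin and IGF signalling 2 of 14 and Wnt signalling 2 of 36. With both scores as covariates these 3 lists had 1, 1 and 2 lower and 2, 3 and 2 higher DEGs, in that order. BMP and TGF-beta signalling had 1 lower DEG of 35, Bmp7, a secreted growth factor of choroid plexus and meninges, at 1.59, 3.27, 3.43 and 3.14 FPKM in the controls and 1.18, 1.21, 0.84, 0.806 and 1.05 FPKM in the cKO mice (log2 fold change -0.91 ± 0.18, adjusted p = 0.0855). With both scores as covariates that list had 1 lower and 4 higher DEGs, and the value of Bmp7 was -0.23. The 3 DEGs of 78 respiratory chain genes were the tissue-specific subunits Cox8b, Cox7a1 and Cox6b2, which were all choroid- or ependyma-linked. No gene of 79 cytosolic ribosomal proteins, 18 p53 targets, 18 circadian clock genes or 3 germline genes was a DEG. DNA repair and damage signalling had 1 lower DEG of 24 (Apex1), proteasome subunits 1 of 39 (Psmb9), glucocorticoid response 1 of 13 (Sult1a1), clustered histone genes 1 of 21 and the cell cycle list 1 lower and 1 higher of 21. The 58 protocadherin genes had 1 lower and 1 higher DEG, and their counts are uncertain because clustered protocadherins share 3′ exons.

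**Figure D4:**
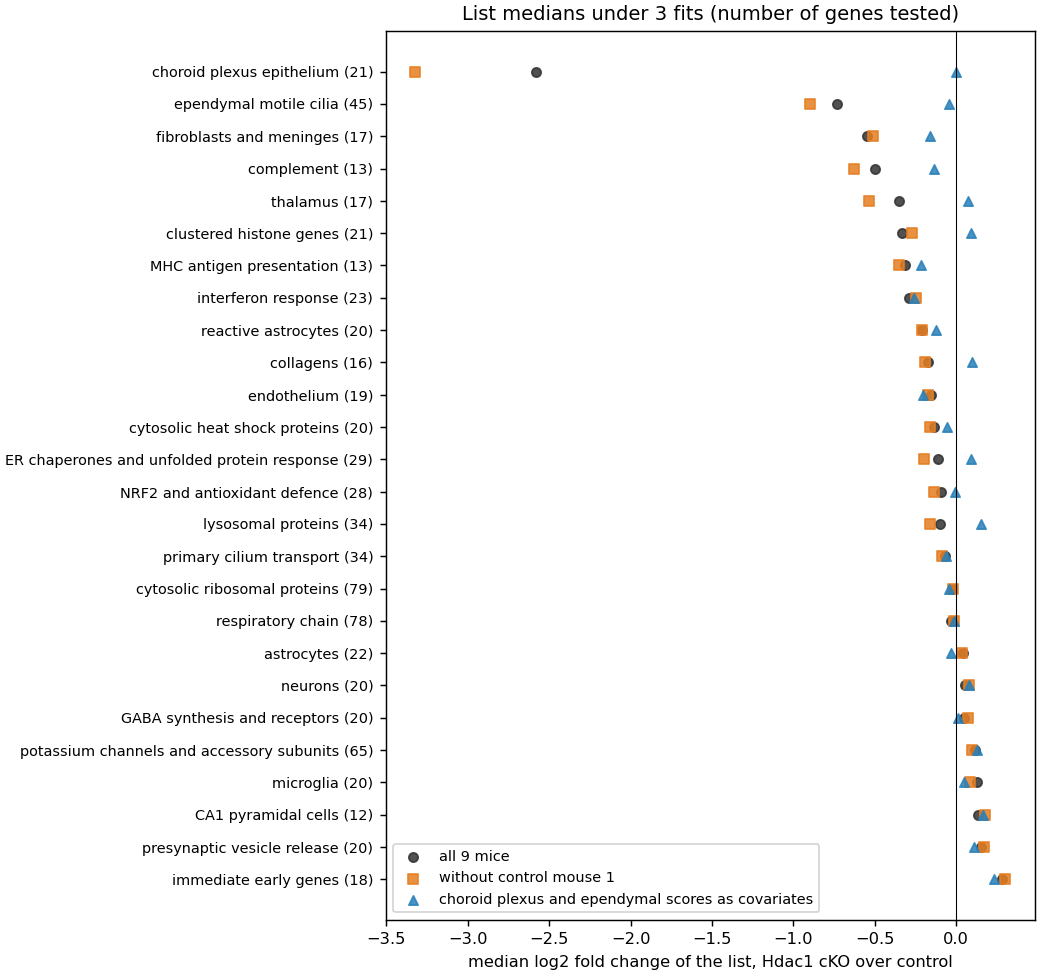
Median log2 fold change (Hdac1 cKO over control, horizontal axis) of 26 gene lists, with the number of genes tested in brackets, in all 9 mice, without control mouse 1, and with the choroid plexus and ependymal scores as covariates. The choroid plexus median moves from -2.58 to -3.32 and to -0.0011, while the immediate early gene median stays between 0.23 and 0.30. With covariates, the choroid plexus and ependymal medians follow largely from construction, since the scores of these lists are the covariates.

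Leaving out control mouse 1 gave more lower DEGs, 566 of 14262 genes (3.97%). For the genes called in that fit, the place of the omitted mouse could be read. Over all genes tested, control mouse 1 lay above all 5 cKO mice for 20.3%. It did so for 4 of the 20 choroid plexus list genes called (20%), for 14 of 60 choroid-linked genes (23.3%), 11 of 33 ependymal list genes (33.3%), 7 of 26 ependyma-linked genes (26.9%) and 141 of 427 genes outside the classes (33.0%). The cKO mice are shared between the fit and this reading, so these shares are a description. The median of the choroid plexus list was -3.32 in this fit, that of the ependymal list -0.90.

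With the choroid plexus and ependymal scores as covariates, the genotype effect is read between mice of like scores, which the 2 groups hardly provide. In this fit 491 genes were lower DEGs (3.44%) and 565 were higher DEGs (3.96%), and the median of the choroid plexus list was -0.0011 and that of the ependymal list -0.04. Each score is the mean over its own list, so the fit removes the mean genotype effect over that list by construction. These 2 medians, the DEG counts on the 2 lists and changes of sign among their members are therefore no result about the lists. The log2 fold change of Hdac1 was -0.95 in it, of Tekt1 -1.64, of Prps2 -0.77, of Aga -0.88, of Kcne3 1.42 and of Gabrd 0.84. These 6 values kept the direction found without covariates. Among the other named rises, values were smaller than without covariates for Nr4a1 (0.51), Ackr3 (0.26) and 6430706D22Rik (0.49). They were larger for Grin2c (1.70), Junb (1.01) and 1110054M08Rik (1.30). Values below 0.5 in size were obtained for Cd63 (-0.41), Hspa5 (-0.30), Hspb1 (-0.32), Lamp2 (-0.15), Cd59a (-0.13) and Igfbp2 (-0.11). Other named genes also had such values, among them Hsp90b1 (-0.29), Elovl7 (-0.25), Slco1c1 (-0.04), Bmp7 (-0.23), Gpx3 (-0.30), C4b (-0.20), Serping1 (-0.41) and Bst2 (-0.46). All 22 genes with an adjusted p under 0.05 in the 9 mice kept their direction, but the 10 genes past the adjusted threshold of limma in this fit included none of them, while Aqp1, Clic6, Kl, Slc4a5, Foxj1, Rsph1, Sulf1, Zic1 and Zic4 changed sign.

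The same contrast was available in 2 sets of samples that do not enter the comparison. On the 5XFAD background, which carries human transgenes with familial Alzheimer's disease mutations driven by the Thy1 promoter, 5 compound mice were compared with 6 5XFAD mice. There 85 of 14326 genes (0.593%) were lower DEGs and 99 (0.691%) were higher DEGs. Hdac1 was between 6.10 and 9.64 FPKM in the 5XFAD mice and between 1.15 and 2.52 FPKM in the compound mice (log2 fold change -1.66 ± 0.16), and it was the single gene of the 22 called there. The choroid plexus list had a median of -0.84 with 0 DEGs of 21, by limma, although all 21 genes were negative. The ependymal list had a median of -0.11 with 1 lower DEG of 42, and 23 of the 42 were negative. Of the 289 lower DEGs outside the classes, 266 were tested and 9 were lower DEGs again (3.38%, compared with 0.491% of the other 13448 genes), while 5 were higher DEGs, and 149 of the 266 had a negative and 117 a positive log2 fold change. The 9 genes were Hdac1, H2-Eb1, H2-Aa, Slc6a13, Slc39a4, Slc22a18, Asgr1, 1700016K19Rik and 4930593C16Rik. Cd63, Ggh and Aga had positive log2 fold changes of 0.42 ± 0.17, 0.41 ± 0.30 and 0.36 ± 0.22 on this background. The values were -0.09 ± 0.34 for Kcne3 and -0.13 ± 0.20 for Hspa5. The interaction of Hdac1 loss and 5XFAD over the 20 mice gave 0 of 14389 genes with a limma adjusted p under 0.05 and 1290 (8.97%) with an unadjusted p under 0.05.

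GFAP+ nuclei, mostly of astrocytes, were sorted from the cortex, and their libraries were made by another method (SMART-Seq). The astrocyte score lay between 7.54 and 7.77 in the control and between 7.56 and 7.85 in the cKO nuclei. Scores of other cells varied more. The microglia score was 2.55, 3.31 and 2.76 in the control and 2.00, 2.27, 3.12 and 3.28 in the cKO nuclei. The mature oligodendrocyte score was 4.02, 5.08 and 4.61 against 3.38, 3.68, 5.01 and 4.88. The part of these cells in the differences between the nuclei was not tested. None of the 16 choroid plexus and 34 ependymal list genes tested there was a lower DEG, and 3 and 5 of them were higher DEGs. With 3 control and 4 cKO samples, 202 of 15070 genes (1.34%) were lower DEGs and 187 (1.24%) higher DEGs. Hdac1 was at 14.5, 9.91 and 22.3 FPKM in the control nuclei and 9.71, 11.5, 5.8 and 8.73 FPKM in the cKO nuclei (log2 fold change -0.70 ± 0.28). Of the 289 hippocampal genes 244 were tested, of which 11 were lower DEGs in the nuclei (4.51%, compared with 1.19% of the other 13072 genes) and 2 were higher DEGs, with 132 negative and 112 positive values. The 11 genes were Hdac1, Sncg, Bst2, Ifitm3, C4b, Apoc1, Lyz2, Odf2l, Tmem238, Trim34a and 6720489N17Rik. The 2 higher DEGs were 1700007K13Rik and 1700040L02Rik, the latter a fall past the adjusted threshold in the hippocampus. Apoc1 was a higher DEG on the 5XFAD background. Of the 71 higher DEGs, 2 of 67 tested were higher DEGs on the 5XFAD background (2.99%, compared with 0.616% of the other 13647 genes) and 1 of 60 in the nuclei (1.67%, compared with 1.02% of the other 13256), and 1 was a lower DEG in each set. On the 5XFAD background 44 of the 67 had a negative log2 fold change, while in the nuclei 22 of the 60 were negative and 38 positive.

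Sncg, Bst2, C4b and Ifitm3 are given by sample, chosen after their values were seen. Sncg was at 7.15, 7.87 and 7.69 FPKM in the control nuclei and 1.67, 2.4, 1.1 and 1.93 FPKM in the cKO nuclei, with a log2 fold change of -1.65 ± 0.23 (adjusted p = 0.109) beside -1.27 ± 0.21 in the hippocampus. On the 5XFAD background its value was -0.13 ± 0.25, and the ranges overlapped. The values there were 0.13 ± 0.42 for Bst2 and 0.44 ± 0.27 for Ifitm3, opposite in sign to those in the hippocampus, and -0.54 ± 0.22 for C4b. The difference between the backgrounds was 1.62 ± 0.38 on the log2 scale for Ifitm3 (limma interaction, adjusted p = 0.297). Bst2 was at 13, 17.2 and 13.5 FPKM in the control nuclei and 4.89, 3.83, 6.88 and 9.29 FPKM in the cKO nuclei, and C4b at 34.4, 23.8 and 22.5 FPKM and 17.6, 11.7, 14 and 14.1 FPKM. Ifitm3, an antiviral protein of endosomes, was at 152, 94, 219 and 182 FPKM in the control and 58.6, 57.5, 76.6, 77.1 and 70.9 FPKM in the cKO hippocampus, and at 57.3, 62.5 and 54.9 FPKM and 34.4, 26, 44.7 and 51.6 FPKM in the nuclei. For all 4 genes no cKO sample reached a control sample in either tissue. All 4 are among the genes called lower in both sets, so this separation only describes them, and its share over all genes was not taken. The changes in the nuclei, -1.15 ± 0.26 for Bst2, -0.85 ± 0.19 for C4b and -0.60 ± 0.21 for Ifitm3, did not pass adjustment over the 15070 genes tested there.

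**Figure D5:**
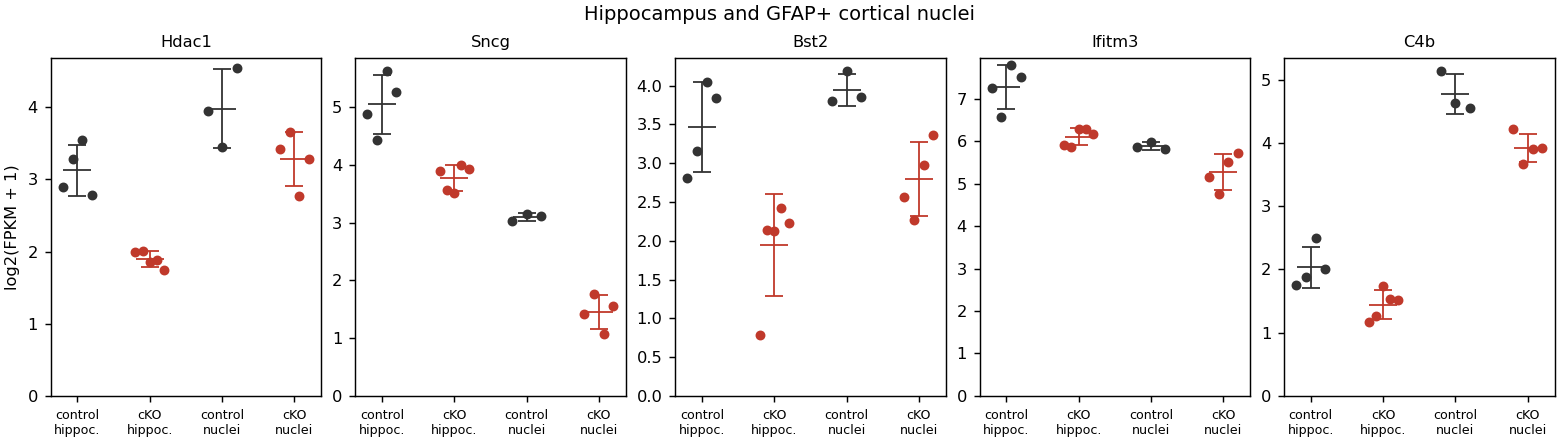
Log2(FPKM + 1) of 5 genes in the hippocampus of 4 control and 5 Hdac1 cKO mice and in GFAP+ cortical nuclei of 3 control and 4 cKO samples, with bars for the mean and SD (levels are not comparable between the 2 library methods). For Sncg, Bst2, Ifitm3 and C4b, chosen after their values were seen, the cKO samples lie below the control samples in both sample sets. For Hdac1 they overlap in the nuclei.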

How the data were processed

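Hippocampal RNA of 4 control and 5 Hdac1 cKO mice was analysed, with 11 mice on the 5XFAD background and 7 samples of GFAP+ nuclei as separate sets. The files the authors deposited hold FPKM values, 1 per gene and sample. The authors made the hippocampal libraries by 3′ digital gene expression, aligned reads with Tophat2 and computed FPKM with Cufflinks 2.0.0 and the UCSC mm9 annotation; the submitters' notes give the same build for the nuclei. FPKM divides by transcript length although 3′ libraries read transcript ends, a constant factor per gene that leaves fold changes between mice unchanged but moves genes relative to the filter and the pseudocount. No fragment counts were given, so no count model or counting interval was used, and depth is given in relative terms only.

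Values were log2(FPKM + 1). Genes that reached an average of 0.5 FPKM in the samples of a fit were tested with limma 3.58.1 (trend and robust options) in R 4.3.3, and p was adjusted over all genes tested (Benjamini-Hochberg). DEGs differed by 1.5-fold or more with p under 0.05 before adjustment, limits taken from the study's methods, which name no test. Summaries were made in Python 3.11.15 with pandas 2.3.3 and numpy 2.4.6 and drawn with matplotlib 3.10.9. The fit without covariates was tested on simulated data, with normal values drawn for each gene on its own. Such data lack the joint variation of the choroid plexus and ependymal genes. Each p-value sets a difference between groups against the remaining spread between mice, which limma moderates with the other genes.

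The gene lists, the classes and the members were chosen with earlier results of these data known. Genes were named by rule: Hdac1 and Hdac2, every gene with an adjusted p under 0.05 and no overlap, the 10 DEGs of smallest p per direction outside the classes, the 6 of smallest p among genes linked to each source, up to 4 DEGs per list, and defining markers. Exceptions are stated where they occur. Gene coordinates are from an mm9 gene annotation, and promoters from RefSeq (GRCm38.p6), 11134 of the 14265 genes tested being matched by symbol. Alternatives were other pseudocounts, filters, scalings, link limits, limma options, a replicate block, covariates and leaving out each mouse.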

Additional observations from a re-analysis of the deposited data

Results flagged for a closer look

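In groups of 4 or 5 mice, a highest or lowest value far from the rest by Dixon's criterion was looked for in every score and every gene named, and chance alone picks out about 1 in 20 groups. Among the controls, mouse 1 was far below the others for the ependymal score (1.85), Rsph1 (4.15 FPKM), Grin2c (0.588 FPKM) and Bmp7 (1.59 FPKM), and mouse 4 was far above them for Tmem212 (75.6 FPKM). Among the Hdac1 cKO mice, mouse 5 was far above the others for the choroid plexus score (1.95) and for 6 genes of that list, Ttr (1608 FPKM), Folr1 (9.92 FPKM), Clic6 (2.28 FPKM), Slc4a5 (0.875 FPKM), Kcnj13 (8.08 FPKM) and Kcne2 (0.787 FPKM), as well as for Foxj1 (1.10 FPKM) and Ezr (18.6 FPKM). The same criterion picked out cKO mouse 2 for 4932438H23Rik (2.22 FPKM) and cKO mouse 1 for Cxcl13 (0.213 FPKM) and, at the low end, Bst2 (0.724 FPKM). So 8 of the 11 values among cKO mice that met the criterion as single genes came from mouse 5.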

How the results depend on the processing

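The 409 lower DEGs stayed within 1.5 times of that number in all alternatives run, but other counts moved. With the choroid plexus score, and with both scores, as covariates, there were 878 and 1056 DEGs, 454 and 565 higher DEGs, 444 and 552 higher DEGs outside the classes, 0 and 1 lower DEGs on the choroid plexus list, 4 and 2 on the ependymal list, 1 and 1 on the ER list, and, with both scores, 482 lower DEGs outside the classes. The log2 fold changes that changed sign were those of Aqp1 (0.056 and 0.16), Clic6 (0.76 and 0.82), Foxj1 (0.32 and 0.36), Kl (0.042 and 0.21), Rsph1 (0.51 and 1.02) and Slc4a5 (0.083 and 0.096) and, with both scores, Sulf1 (0.13), Zic1 (0.014) and Zic4 (0.17). Aqp1, Clic6, Kl and Slc4a5 are on the choroid plexus list, and Foxj1 and Rsph1 are on the ependymal list. A fit with a list's own score removes the mean genotype effect over that list by construction. Fewer lower DEGs on such a list, and changes of sign among its members, therefore follow largely from the fit. The cause of the other changes was not tested.

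The number of genes with an adjusted p under 0.05 by limma was 0 with the choroid plexus score as covariate (1279 with an unadjusted p under 0.05), 10 with both scores, 1 with all 4 hippocampal groups in the fit, 9 with no filter and 8 without the trend and robust options. A pseudocount of 0.1 gave 141 higher DEGs, all outside the classes, and median scaling and quantile normalization each left 1 lower DEG on the ER list, causes likewise not tested. With links at r of at least 0.7 and 0.9, the lower DEGs outside the choroid plexus and ependymal classes numbered 248 and 334.

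Mice with the same number are different animals, and their deviations from the group means had r between -0.04 and 0.05, so the numbers do not pair them. The replicate block, in which cKO mouse 5 has no partner and does not contribute, gave 499 DEGs, 0 genes with an adjusted p under 0.05 (1522 with an unadjusted p under 0.05) and 0 lower DEGs on the ER list.

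Leaving out each mouse in turn gave 411 to 659 DEGs, 329 to 566 lower and 65 to 110 higher DEGs, the last without control mouse 2, and the same 65 to 110 outside the classes. It gave 232 to 427 lower DEGs outside the classes, 19 to 20 on the choroid plexus list, 19 to 33 on the ependymal list and 0 to 3 on the ER list (0 without cKO mouse 5, 1 without cKO mouse 3 or control mouse 2, 3 or 4). Genes with an adjusted p under 0.05 numbered 2 to 290, with 290 without control mouse 1, 9 without cKO mouse 5, 7 without control mouse 2, 5 without control mouse 4 or cKO mouse 1, 4 without cKO mouse 2 and 2 without control mouse 3 or cKO mouse 3 or 4. No named gene changed sign when a mouse was left out.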
